A study of Mus musculus with 12 samples.

Results

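Granzymes, perforin and 6 other genes of the cytotoxic granule were followed in cultured mouse Tregs that had IL-2, lacked it, or carried an IL-2 variant tethered to its own receptor. The 10 genes, found in the table by their symbols, were Gzma, Gzmb, Gzmc, Gzmk, Prf1, Srgn, Nkg7, Ctsw, Serpinb9 and Serpinb6b, among 55228 genes in all. All groups came from the lymph nodes of 16 NOD.Foxp3-GFP mice, whose CD4+ cells were pooled, divided into 3 parts, and sorted for Foxp3.GFP+CD25+ cells on separate machines. Each part was activated on its own, and its cells received 1G12t, 3A10t or an empty vector (EV) by retrovirus on day 2. The vectors carry a Thy1.1 reporter. 1G12t and 3A10t join the orthoIL-2 variant 1G12 or 3A10 to the orthogonal IL-2 receptor β chain through a linker made from CD25. IL-2 was washed away on day 4 for 1G12t, 3A10t and EV no IL-2, while EV+IL-2 cells stayed in IL-2. After 5 more days, on day 9, the cells that carried Thy1.1 were sorted for RNA. Each of the 4 groups had 3 libraries, which are separate cultures of 1 pool of cells, so that p-values measure the spread between cultures and not between mice.

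Cytotoxic lymphocytes store granzymes, which are serine proteases, in secretory granules together with perforin, which opens the membrane of the target cell to them. The proteoglycan serglycin holds both in the granule, and serpins in the cytosol protect the cell that carries them from its own granzymes. Granzyme B is made by activated Tregs as well as by NK and CD8 T cells, and IL-2 acting through STAT5 is known to induce it. Values are scaled TPM (length-corrected transcript abundance, divided by a factor for each library), which can be compared between genes. TPM keep no read depth, so the depth is unknown and no counting error can be given. In bulk RNA, fewer cells that express a gene and less RNA in each cell cannot be told apart. Of the 10 genes, 8 had a mean of at least 1 TPM and were tested; Gzma and Gzmk were below it. In 1 library, 1G12t replicate 3, Gzmb stood far below all others, and the log2 fold changes of Gzmb are given with and without that library. Correlations are given only with it.

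Gzmb and Gzmc are neighbours. In GENCODE M21 on GRCm38, Gzmb lies on the minus strand of chromosome 14 from 56258838 to 56262260, and Gzmc on the same strand from 56231441 to 56234656, with 24182 bases and none of the other granzyme genes listed here between them. The 250 bases before their start sites (RefSeq, GRCm38.p6, minus strand) are shown because these were the members with the highest ratios between EV+IL-2 and EV no IL-2. Capitals mark matches, on either strand, to 2 of 4 short motifs that were searched.
Gzmb, chr14:56262335-56262584: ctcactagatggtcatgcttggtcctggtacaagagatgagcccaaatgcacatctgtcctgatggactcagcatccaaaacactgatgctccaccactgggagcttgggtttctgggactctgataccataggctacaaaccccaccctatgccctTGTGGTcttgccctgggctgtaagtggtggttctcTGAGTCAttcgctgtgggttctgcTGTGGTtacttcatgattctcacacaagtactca
Gzmc, chr14:56234658-56234907: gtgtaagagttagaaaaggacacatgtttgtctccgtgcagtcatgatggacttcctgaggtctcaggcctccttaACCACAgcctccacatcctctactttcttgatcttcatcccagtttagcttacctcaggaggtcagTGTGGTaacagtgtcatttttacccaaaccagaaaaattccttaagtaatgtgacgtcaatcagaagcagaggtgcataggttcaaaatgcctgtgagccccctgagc
The window of Gzmb held an AP-1 motif (TGANTCA) at -58 to -52 from the start and Runx motifs (TGTGGT) at -93 to -88 and -34 to -29. That of Gzmc held Runx motifs at -174 to -169 and -108 to -103, and neither held a STAT motif (TTCNNNGAA). Among the windows of 9 members found in RefSeq, the Runx motif was also found before Gzma, Prf1, Nkg7 and the second start site of Srgn. The STAT motif and the T-box motif (AGGTGTGA) were found only before Nkg7, the former as TTCCAGGAA at -220 to -212, and none of the 4 motifs was found before Gzmk, Serpinb9 or Serpinb6b. No 2 of these matches overlapped. Of 32851 such windows in the mouse genome, 14% held the Runx motif, 7.02% the STAT motif, 6.75% the AP-1 motif and 1.12% the T-box motif. A match describes the letters only.

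EV+IL-2 against EV no IL-2 asks what continued IL-2 did to Tregs that carried no tether. Gzmb, Gzmc, Nkg7, both serpins and Srgn were higher with IL-2, while Prf1 and Ctsw did not pass the test. Thus 6 of the 8 tested members had an adjusted p under 0.05 (limma with Benjamini-Hochberg adjustment over 15043 genes), all 6 higher, where 13.3% of all tested genes passed in either direction. The same 6 passed the threshold of the study (a log2 fold change beyond 0.25 at an unadjusted p under 0.01), which 15.1% of genes passed. Throughout, this threshold was applied to limma p-values on TPM. The study applied it to DESeq2 results on counts, so genes that passed here are not the study's own calls. In 7 members the 3 EV+IL-2 libraries did not overlap the 3 EV no IL-2 libraries, all 7 above them, and 39.6% of genes had no overlap. The median log2 fold change of the 8 members was 0.93, and that of all tested genes was -0.01. Summed over the 10 genes, the level was 785 to 847 scaled TPM in EV no IL-2 and 1452 to 1551 in EV+IL-2, beside 778 to 889.7 in 1G12t and 917 to 1166 in 3A10t.

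**Figure D1:**
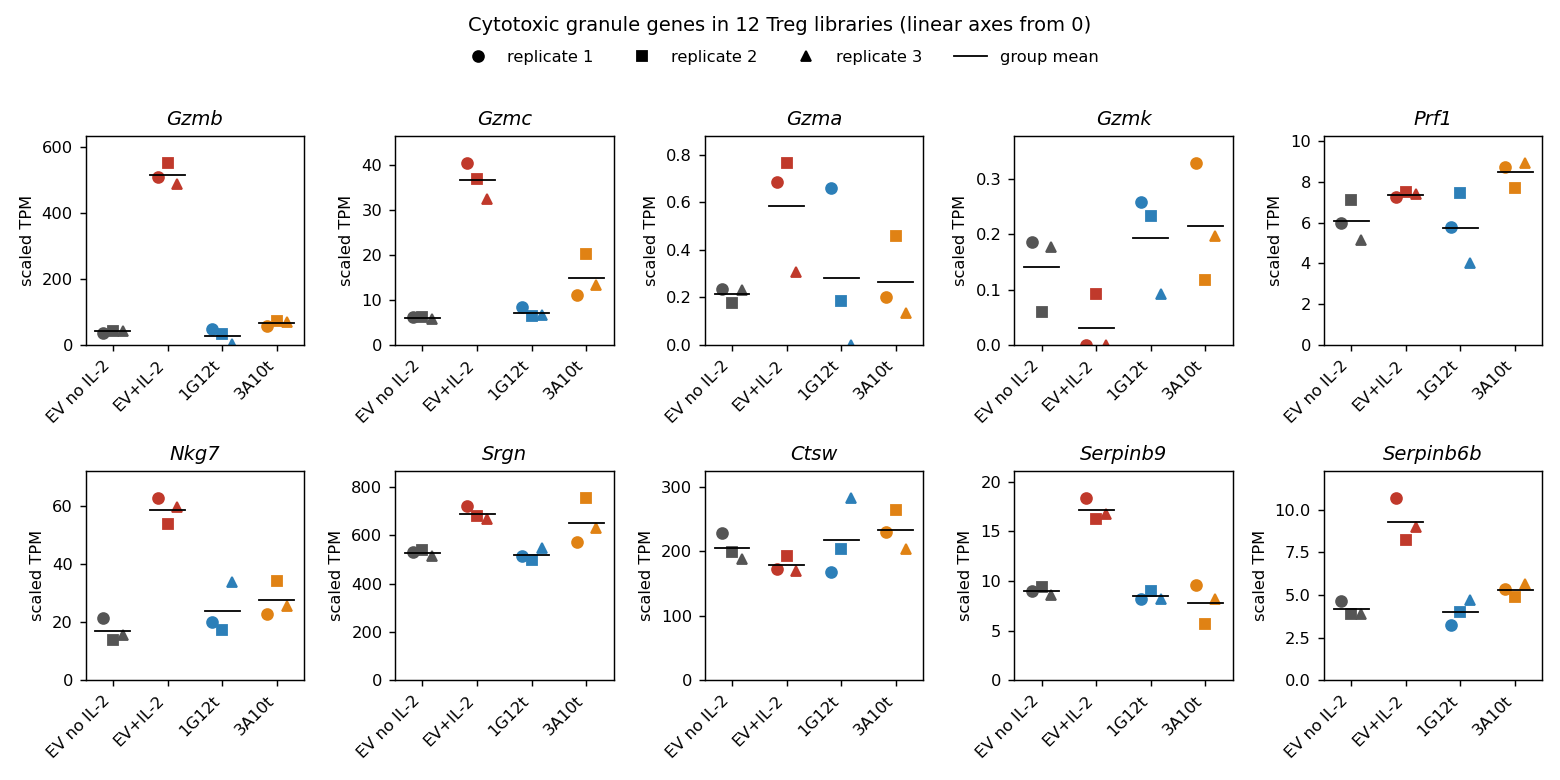
Scaled TPM (vertical axes, linear and starting at 0) of the 10 members in each of the 12 libraries, by group. Symbols mark replicate number and lines the group mean; Gzmb reached 488 to 552 in EV+IL-2 and was 3.33 in 1G12t replicate 3, while Prf1 stayed between 4.01 and 8.93 in all libraries.

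Gzmb encodes granzyme B, which cleaves its substrates after aspartate and can activate caspases. The 3 EV libraries without IL-2 had 37.2, 41.0 and 43.1 scaled TPM, and those with it 509, 552 and 488. All EV+IL-2 libraries lay far above all others, and Gzmb went from the 72.0th percentile of tested genes to the 98.2nd. The means of 40.4 ± 3.01 and 517 ± 32.6 (SD, n = 3) had a ratio of 12.8, the log2 fold change was 3.64 (SE 0.67), and the adjusted p was 0.00449 by limma, the 6th largest increase of all tested genes. Without 1G12t replicate 3, which widened the spread of Gzmb in the fit, the log2 fold change was 3.64 and the adjusted p was 7.94e-07.

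Gzmc, a granzyme gene of the same cluster, was read at 6.07, 6.25 and 5.75 scaled TPM without IL-2 and at 40.4, 36.9 and 32.4 in EV+IL-2, without overlap. The means were 6.02 ± 0.252 and 36.5 ± 4.03 (SD, n = 3), and the log2 fold change of 2.41 (SE 0.18) had an adjusted p of 1.2e-05 by limma. Gzmc is not fully separate from its copies, since 35 of its 845 words of 50 bases (4.14%) occurred in other genes, 32 of them in Gzme. Gzme itself had means of 0.0721 scaled TPM without IL-2 and 0.0230 with it in the EV cells, and the other 4 granzyme genes of the cluster (Gzmd, Gzmf, Gzmg and Gzmn) had means of at most 0.165 in any group. Gzmm, the remaining granzyme listed, was between 0.52 and 1.90 in the 12 libraries and did not pass in any comparison with EV no IL-2.

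Gzma and Gzmk, which encode granzymes of trypsin-like specificity, were close to 0 in every library. In the EV cells, Gzma was at 0.236, 0.175 and 0.232 scaled TPM without IL-2 and at 0.685, 0.767 and 0.305 with it. It was 0.659, 0.186 and 0 in 1G12t and 0.200, 0.457 and 0.135 in 3A10t. Only with IL-2 did all 3 libraries lie above the EV cells without it. Gzmk was at most 0.329, in 3A10t replicate 1, and was listed at 0 in EV+IL-2 replicates 1 and 3. When all 50219 genes above 0 were tested, neither passed against EV no IL-2 in any group (adjusted p of 0.301 or more by limma).

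Prf1, the gene of perforin, was at 5.97, 7.11 and 5.17 scaled TPM without IL-2 and at 7.23, 7.50 and 7.39 with it. The EV+IL-2 libraries lay above all 3 without IL-2, but by a narrow margin, and the log2 fold change of 0.25 (SE 0.17) had an adjusted p of 0.409 by limma. On TPM as deposited the groups overlapped, with 7.18 in EV+IL-2 replicate 1 and 7.3 in EV no IL-2 replicate 2. Among the 8 tested members Prf1 had the third lowest mean without IL-2, above Gzmc and Serpinb6b. Its mean in EV+IL-2 was the lowest of them.

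Within a library, Gzmb was higher relative to other granule genes in all 3 EV+IL-2 cultures. The ratio of Gzmb to Prf1 within a library was 6.23, 5.77 and 8.34 without IL-2, and 70.4, 73.6 and 66.1 with it. The ratio of Gzmb to Gzmc was 6.12, 6.57 and 7.49 without IL-2 and 12.6, 15.0 and 15.1 with it, so that it was higher as well but by less. The ratio to Serpinb9, the inhibitor of granzyme B, was 4.12, 4.37 and 5.02 without IL-2 and 27.7, 33.9 and 29.1 with it. These ratios do not depend on the scaling, and no test was run on them.

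**Figure D2:**
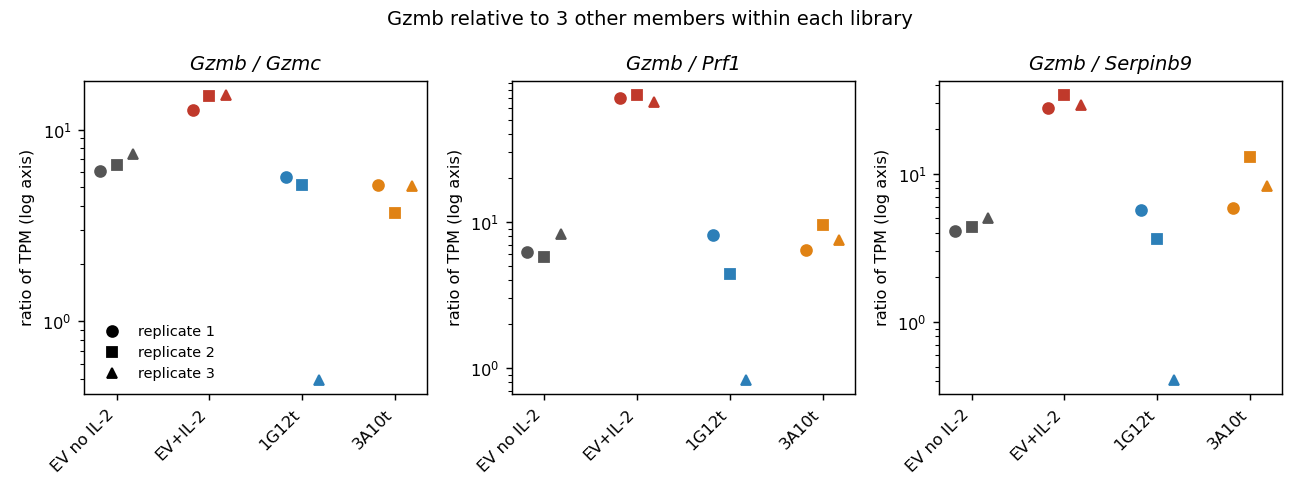
Ratio of the TPM of Gzmb to that of Gzmc, Prf1 or Serpinb9 (vertical axes, log scale) within each of the 12 libraries, by group, with symbols for the replicate number. The ratio to Prf1 was 66.1 to 73.6 in EV+IL-2, between 4.42 and 9.53 in 8 other libraries and 0.831 in 1G12t replicate 3.

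Srgn, the core protein of serglycin, was the most abundant member. EV cells without IL-2 had 533, 538 and 514 scaled TPM, and those with it 721, 683 and 668. The groups did not overlap, the log2 fold change was 0.39 (SE 0.09), and the adjusted p was 0.0189 by limma. This call was lost without any 1 of the EV no IL-2 libraries and without EV+IL-2 replicate 1 or 2, with adjusted p values of up to 0.0799.

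Nkg7, a granule membrane protein needed for efficient degranulation, was at 21.4, 13.99 and 15.7 scaled TPM without IL-2 and 62.7, 53.9 and 59.8 with it. There was no overlap, and the log2 fold change of 1.75 (SE 0.24) had an adjusted p of 6.92e-04 by limma. Ctsw, the cysteine protease cathepsin W of cytotoxic lymphocytes, was at 229, 198 and 188 without IL-2 and at 172, 193 and 170 with it. Here the groups overlapped, and Ctsw was the only tested member with a negative log2 fold change, -0.20 (SE 0.17, adjusted p = 0.537 by limma).

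The serpins, which block granule proteases that reach the cytosol, were both higher with IL-2. Serpinb9 was at 9.02, 9.39 and 8.59 scaled TPM without IL-2 and 18.3, 16.3 and 16.8 with it, a log2 fold change of 0.86 (SE 0.14, adjusted p = 0.00263 by limma). Serpinb6b, known as an inhibitor of granzyme A in the mouse, was at 4.67, 3.90 and 3.90 without IL-2 and 10.7, 8.24 and 8.98 with it. Its log2 fold change was 0.99 (SE 0.13, adjusted p = 6.03e-04 by limma), and neither serpin had overlapping groups. They lie 24183 bases apart on the plus strand of chromosome 13, Serpinb6b from 32965209 to 32979067 and Serpinb9 from 33003250 to 33017957. Words of 50 bases shared with other genes made up 2.92% of those of Serpinb6b, mostly with Serpinb6c, and 0.378% of those of Serpinb9. Serpinb6a, another clade B serpin, fell from a mean of 67.4 to 44.9 (log2 fold change -0.57, SE 0.11, adjusted p = 0.00448 by limma).

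3A10t against EV no IL-2 asks whether the 3A10 tether stood in for the IL-2 that had been removed. Of the members, Gzmc alone passed the test, and its level lay between those of the EV groups. Thus 1 of 8 had an adjusted p under 0.05 by limma, where 2.05% of all genes passed, and Gzmc and Srgn passed the threshold of the study, where 9.5% did. In 6 members the 3A10t libraries did not overlap those of EV no IL-2, all 6 above them, and 25.4% of genes had no overlap. On TPM as deposited, Prf1 and Serpinb6b did overlap. There 3A10t replicate 2 had 6.59 and 4.17, below EV no IL-2 values of 7.3 and 4.75. The median log2 fold change was 0.36 for the members and 0.03 for all tested genes. The comparison uses the same 3 EV no IL-2 libraries as the one above.

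Gzmc was at 11, 20.1 and 13.3 scaled TPM in 3A10t, with all 3 libraries above the 5.75 to 6.25 of EV no IL-2 and below the 32.4 to 40.4 of EV+IL-2. The mean was 14.8 ± 4.72 (SD, n = 3), the log2 fold change was 1.13 (SE 0.18), and the adjusted p was 0.0201 by limma. It was 0.259 when only these 6 libraries entered the fit, and the call was also lost without any 1 of the EV no IL-2 libraries or without 3A10t replicate 3. In those settings 0.0266% to 0.604% of all genes passed, against 2.05% with all libraries. The log2 fold change lay between 0.82 and 1.31 in all 21 alternatives. The highest value came from 3A10t replicate 2, the library whose 10 most abundant genes held the most TPM (13.5%) and whose scale factor was the lowest. Without it the log2 fold change was 0.90 and the adjusted p was 0.0236.

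Gzmb was at 56.5, 73.5 and 67.7 scaled TPM in 3A10t, above the 37.2 to 43.1 of EV no IL-2 in all 3 libraries. The mean of 65.9 ± 8.67 (SD, n = 3) was 1.63 times that of EV cells without IL-2, and the log2 fold change of 0.69 (SE 0.67) had an adjusted p of 0.519 by limma. Without 1G12t replicate 3, which widens the spread for this gene, the log2 fold change was 0.69 and the adjusted p was 0.0481. That was the 1 of 21 alternatives in which Gzmb was called here.

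Prf1 was at 8.74, 7.72 and 8.93 scaled TPM in 3A10t, and its mean of 8.46 was the highest of the 4 groups. All 3 libraries lay above all 3 of EV no IL-2, and the log2 fold change of 0.42 (SE 0.17) had an adjusted p of 0.154 by limma. Against EV+IL-2 the 3A10t libraries were also above all 3, by 0.17 on the log2 scale (adjusted p = 0.482). On TPM as deposited neither separation held, because 3A10t replicate 2 was at 6.59. That lay below the 7.18 to 7.51 of EV+IL-2 and the 7.3 of EV no IL-2 replicate 2. So the order of the means was 3A10t, EV+IL-2, EV no IL-2 and 1G12t, and no neighbouring pair passed the test. The last place of 1G12t rested on its replicate 3. Without that library the log2 fold change of 1G12t against EV no IL-2 was 0.11 instead of -0.09.

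Srgn was at 574, 754 and 632 scaled TPM in 3A10t, all above EV no IL-2, with a log2 fold change of 0.30 (SE 0.09, adjusted p = 0.101 by limma). It passed without 3A10t replicate 1 (adjusted p = 0.0105), a setting in which 23.2% of all genes passed instead of 2.05%, so that the gain is not particular to Srgn. Nkg7 was at 22.6, 34.2 and 25.7, again all above EV no IL-2, and its log2 fold change of 0.66 (SE 0.24) had an adjusted p of 0.126. Ctsw was at 229, 265 and 204, overlapping EV no IL-2, and its difference of 0.18 on the log2 scale did not pass (adjusted p = 0.511). With all libraries none of the 3 genes passed, and on TPM as deposited the log2 fold change of Srgn was 0.15.

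Neither serpin passed, and their differences had opposite signs. Serpinb9 was at 9.61, 5.63 and 8.16 scaled TPM in 3A10t, overlapping EV no IL-2, with the lowest value in replicate 2 (log2 fold change -0.21, SE 0.14, adjusted p = 0.357 by limma). Serpinb6b was at 5.37, 4.88 and 5.64, above all 3 EV no IL-2 libraries, by 0.29 on the log2 scale (SE 0.13, adjusted p = 0.197 by limma). On TPM as deposited Serpinb6b overlapped them, with 4.17 in 3A10t replicate 2 and up to 4.75 in EV no IL-2. The ratio of Gzmb to Serpinb9 within a library was 5.88, 13.1 and 8.30 in 3A10t, between those of the EV groups in all 3 libraries. The ratio of Gzmb to Gzmc, in contrast, was 5.13, 3.66 and 5.10, below all 6 EV libraries. In 1G12t that ratio was 5.66, 5.12 and 0.495, also below all 6 EV libraries.

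**Figure D3:**
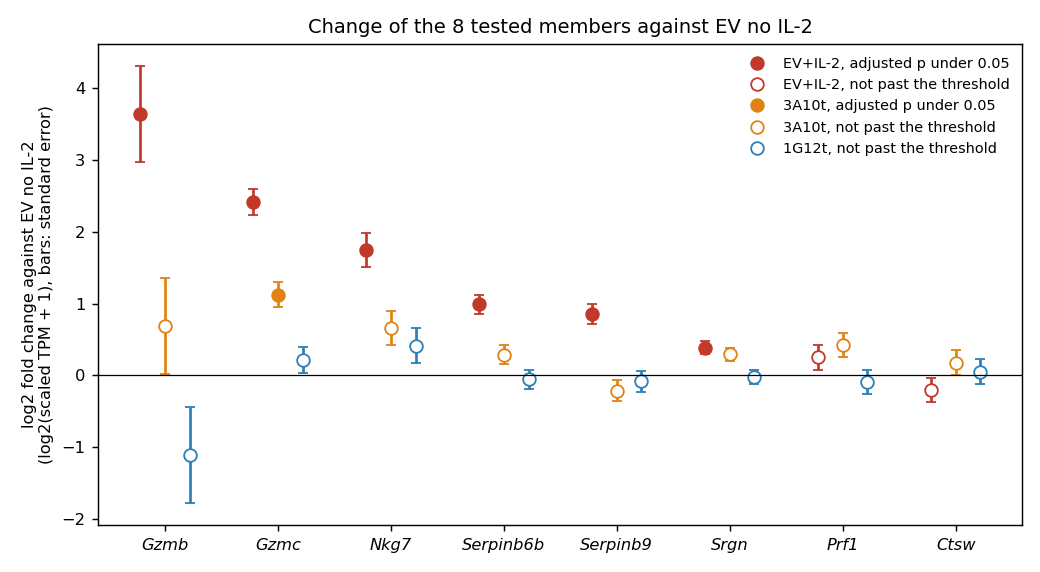
Log2 fold change (vertical axis, on log2(scaled TPM + 1)) of the 8 tested members for the other 3 groups relative to EV no IL-2, with standard errors as bars. Filled points have an adjusted p under 0.05: 6 members in EV+IL-2, Gzmc in 3A10t and none in 1G12t; the 3 comparisons share the EV no IL-2 libraries.

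1G12t against EV no IL-2 puts the same question to the 1G12 tether. None of the 8 tested members passed the adjusted threshold in limma, where 0.0199% of all genes did, none passed the threshold of the study, where 1.36% did, and none had an unadjusted p under 0.05, where 7.04% did. Gzmc was the only member whose libraries did not overlap (above), against 16.5% of genes. The median log2 fold change of the members was -0.04, and that of all tested genes was 0 to 2 decimals.

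Gzmb was at 47.2, 32.9 and 3.33 scaled TPM in 1G12t. Replicates 1 and 2 lay around the range of EV no IL-2, and replicate 3 was far below every other library. The log2 fold change was -1.11 (SE 0.67, adjusted p = 0.741 by limma), and it was -0.03 without replicate 3. On the log2 scale, Gzmb in replicate 3 differed by -3.22 from the mean of replicates 1 and 2, which placed it 28th from the lowest of 15043 genes. The other tested members differed by less. Prf1 had a difference of -0.60, 772nd from the lowest, Gzmc of -0.11, Serpinb9 of -0.06 and Srgn of 0.11, while Serpinb6b was higher by 0.31, Ctsw by 0.61 and Nkg7 by 0.83.

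Gzmc was at 8.34, 6.42 and 6.73 scaled TPM in 1G12t, each above the highest EV no IL-2 value of 6.25, by 0.21 in the mean on the log2 scale (SE 0.18, adjusted p = 0.797 by limma). Nkg7 was at 20.2, 17.1 and 33.8 and overlapped, with the highest value in replicate 3 (log2 fold change 0.42, SE 0.24, adjusted p = 0.741 by limma). Prf1 was at 5.80, 7.43 and 4.01, which is also the lowest Prf1 value of the 12 libraries in replicate 3. Srgn was at 517, 498 and 546, Ctsw at 167, 203 and 282, Serpinb9 at 8.22, 8.98 and 8.20, and Serpinb6b at 3.26, 4.03 and 4.73. All 5 of these genes overlapped EV no IL-2, with log2 fold changes from -0.09 (Prf1) to 0.05 (Ctsw) and adjusted p values of 0.894 or more.

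The tethers were compared with each other directly, since a call in one and none in the other does not show that they differ. In 3A10t against 1G12t, Gzmc was the 1 member of 8 that passed (4.27% of all genes did), higher in 3A10t by 0.92 on the log2 scale (SE 0.18, adjusted p = 0.0327 by limma), with all 3 libraries of 3A10t above all 3 of 1G12t. The call held in 9 of 21 alternatives, and was lost when any library of EV+IL-2 or 1G12t was left out, or replicate 2 or 3 of either other group, settings in which 0.316% to 1.11% of all genes passed. Gzmb had a log2 difference of 1.79 (SE 0.67, adjusted p = 0.111), which was 0.72 (adjusted p = 0.0956) without 1G12t replicate 3. Prf1 (0.52, SE 0.17, adjusted p = 0.0823) and Srgn (0.32, SE 0.09, adjusted p = 0.0641) were also above 1G12t in every library and did not pass. On TPM as deposited, both genes overlapped between 3A10t and 1G12t. The remaining differences were 0.34 for Serpinb6b, 0.24 for Nkg7, 0.12 for Ctsw and -0.13 for Serpinb9, with adjusted p values of 0.122 or more, and that of Ctsw was -0.07 on TPM as deposited. Scaling bears on this comparison, because the median of all genes was -0.18 on TPM as deposited and -0.02 on scaled TPM.

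Against EV+IL-2, 5 of 8 members passed in 3A10t, all 5 lower (23.4% of all genes passed in either direction by limma). The log2 difference was -2.96 for Gzmb (adjusted p = 0.0106), and without 1G12t replicate 3 it was -2.95 (3.46e-06). It was -1.29 for Gzmc (7.91e-04), -1.09 for Nkg7 (0.0091), -1.07 for Serpinb9 (6.3e-04) and -0.70 for Serpinb6b (0.00422). The mean of Gzmb in 3A10t was 0.128 times that in EV+IL-2, and that of Gzmc was 0.404 times. Srgn, in contrast, had a difference of -0.09 (SE 0.09, adjusted p = 0.513), and its 3A10t libraries overlapped those of EV+IL-2. In 1G12t, 6 of 8 members were lower than in EV+IL-2 (20.6% of all genes passed). These were Gzmb (-4.75, adjusted p = 8.09e-04, and -3.68 without replicate 3), Gzmc (-2.20), Nkg7 (-1.33), Serpinb6b (-1.04), Serpinb9 (-0.94) and Srgn (-0.41, adjusted p = 0.0106, and 0.0907 with quantile normalization), while Prf1 (-0.34) and Ctsw (0.26) did not pass.

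The genes whose pattern was most like that of Gzmb over the 12 libraries, by Pearson's r of log2(scaled TPM + 1) among 10041 other genes with a mean of at least 5 TPM, were Lilr4b (0.994), Lilrb4a (0.9895), AA467197 (0.987), Tnf (0.984) and Gm49339 (0.983). Lilr4b and Lilrb4a are closely related genes of 1 receptor family, and reads may be split between them. These correlations are a description over 12 libraries which include the EV+IL-2 group and 1G12t replicate 3, where Gzmb was highest and lowest. Lilr4b had means of 14.5 scaled TPM without IL-2 and 67.2 with it in EV cells, and was 17.0, 12.95 and 2.19 in 1G12t. Lilrb4a was at means of 14.6 and 85.4, and at 23.1, 15.7 and 2.01 in 1G12t. Tnf was at 34.7, 31.5 and 14.8 in 1G12t. All 3 thus had their lowest value of the 12 libraries in 1G12t replicate 3, like Gzmb and unlike Gzmc. Among the members themselves, Gzmc was closer to Nkg7 (r = 0.911), Serpinb6b (0.903) and Srgn (0.903) than to Gzmb (0.866), again over 12 libraries. Whether this order holds without 1G12t replicate 3 was not tested.

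**Figure D4:**
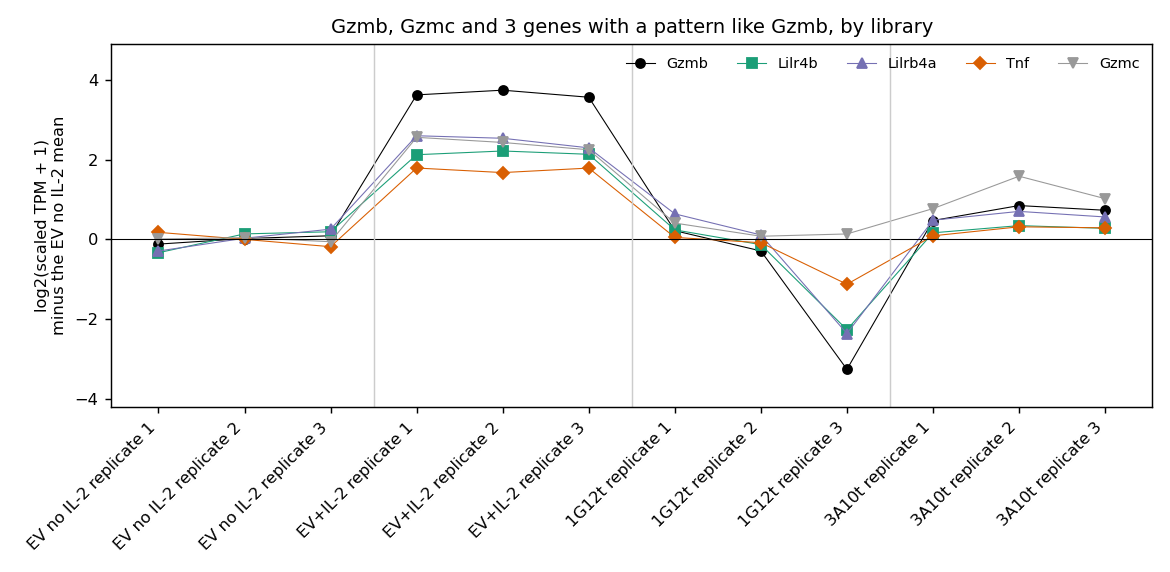
Log2(scaled TPM + 1) minus the EV no IL-2 mean (vertical axis) of Gzmb, Gzmc and 3 genes with a pattern like Gzmb in each of the 12 libraries (horizontal axis); the lines join libraries only to guide the eye. In 1G12t replicate 3, Gzmb, Lilr4b, Lilrb4a and Tnf fall to their lowest values, while Gzmc stays near 0 on this scale.

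Other genes of the granule pathway were read from lists. In EV+IL-2 against EV no IL-2, 13.3% of all tested genes passed in either direction. Among genes of granule release, 4 of 9 tested were higher in EV+IL-2 than in EV no IL-2 and none lower, with a median log2 fold change of 0.34. They were the membrane fusion gene Snap23 (0.72, adjusted p = 0.0139) and the genes of the Rab27 binding proteins Sytl3 (0.57, 0.0222), Sytl2 (0.50, 0.0255) and Sytl1 (0.37, 0.0235). Rab27a itself was not called (-0.05). Of 21 alternatives, Snap23 was called in 18, Sytl1 in 16 and Sytl2 in 15, and Sytl3 was called in 15 of 20. Among genes of granule maturation, 2 of 12 were higher and 1 was lower, where 13.3% of all genes passed. The median of the list was 0.11. Ctsc, whose protease removes the propeptide of granzymes, was higher by 0.71 (adjusted p = 0.0111) and Calr, a chaperone that also binds perforin, by 0.49 (9.62e-04), while Igf2r, a receptor for mannose 6-phosphate, had a log2 fold change of -0.68 (0.0193). Calr was called in 21 of 21 alternatives, Ctsc in 19 and Igf2r in 15. Settings that lost the Igf2r call included leaving out any 1 of the EV+IL-2 libraries or EV no IL-2 replicate 2 or 3. Its highest adjusted p by limma was 0.0694.

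Transcription factors of cytotoxic genes went in both directions in EV+IL-2, with 2 of 8 higher and 3 lower and a median log2 fold change of -0.22. Of all tested genes, 13.3% passed in either direction. Runx3, which promotes cytotoxic genes, was higher by 0.49 (adjusted p = 0.00184) and Hopx by 0.38 (0.0372), though Hopx was called in only 11 of 21 alternatives. Settings that lost the Hopx call included the replicate block (adjusted p = 0.0606 by limma). They also included leaving out 1G12t replicate 1, 3A10t replicate 3, any EV+IL-2 library, or replicate 2 or 3 of EV no IL-2 (adjusted p up to 0.153). Tcf7, the gene of TCF-1, had a log2 fold change of -1.96 (2.2e-04), Stat5b of -0.73 (8.61e-04) and Stat5a of -0.65 (0.00788). Among death ligands and effector cytokines, Lta (1.86, 6.69e-06) and Tnf (1.75, 8.88e-04) were higher, 2 of 4 tested, against 13.3% of all genes. Fasl was not called (-0.32).

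In 3A10t, none of the 9 tested genes of granule release passed against EV no IL-2, none of the 4 death ligands and cytokines and neither of the other serpins, while 3, 1 and 0 of them had an unadjusted p under 0.05, as did 26% of all genes. Gnptab, needed for the mannose 6-phosphate tag that sorts granzymes, was the 1 of 12 genes of maturation that passed, with a log2 fold change of -0.62 (adjusted p = 0.0201 by limma). Tcf7 was the 1 of 8 transcription factors that passed, at -1.05 (adjusted p = 0.0438 by limma). Over all genes, 2.05% passed. Gnptab was called in 16 of 21 alternatives and Tcf7 in 6, and leaving out replicate 2 or 3 of either group ended both calls. Their means were 4.42 against 7.36 scaled TPM for Gnptab and 90.5 against 186 for Tcf7. In 1G12t no gene of these lists passed, where 0.0199% of all genes did. An unadjusted p under 0.05 was found for 7.04% of all genes and for 3 genes of these lists. They were Bach2, Ctsl and Fasl, of which Fasl also passed the threshold of the study when applied to limma p-values (log2 fold change 0.42, adjusted p = 0.684 by limma). The study's own list of changed genes in 1G12t does not contain Fasl.

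**Figure D5:**
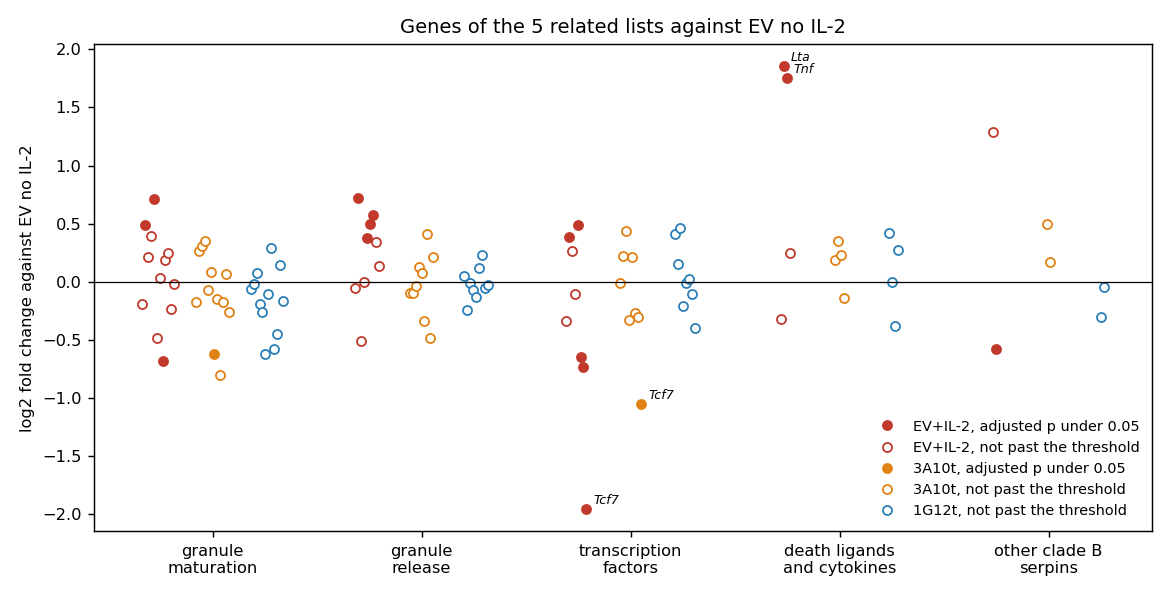
Change relative to EV no IL-2 (vertical axis, a difference of log2(scaled TPM + 1)) of each tested gene in 5 lists (horizontal axis), by group. Filled points have an adjusted p under 0.05; Lta and Tnf are highest in EV+IL-2, and Tcf7 is the lowest gene in EV+IL-2 and in 3A10t.

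The libraries carried the markers of Tregs. Foxp3 was between 483.8 and 509.8 scaled TPM in the 9 libraries outside 3A10t, and at 463, 369 and 391 in 3A10t, below all others. Its difference in 3A10t was -0.28 on the log2 scale against EV no IL-2 (adjusted p = 0.0822 by limma, past the threshold of the study) and -0.31 against EV+IL-2 (adjusted p = 0.0192). The Foxp3 call against EV+IL-2 held in 17 of 21 alternatives, and the adjusted p by limma reached 0.104. Without EV+IL-2 replicate 1 and without 3A10t replicate 3 the adjusted p was 0.0660 and 0.0648. Of 6 Treg markers tested, Il2ra alone passed in EV+IL-2 against EV no IL-2, where it was higher and 13.3% of all genes passed. Of 7 markers of NK and CD8 T cells, 2 passed the filter, and their summed level was 4.76 to 6.17 scaled TPM in EV+IL-2 and 6.09 to 7.03 in EV no IL-2, beside 4.27 to 7.03 in 1G12t and 5.62 to 8.5 in 3A10t. Most of it was Cd8b1, at a mean of 4.96 in EV+IL-2 and 4.21 in EV no IL-2. Ncr1, a defining NK cell gene, had a mean of 0.0197 in EV+IL-2 and Cd8a of 0.381, beside a Gzmb of 517. Klrd1, at means of 0.190 in EV+IL-2 and 1.75 in EV no IL-2, was lower in EV+IL-2. The difference was -1.19 on the log2 scale (adjusted p = 0.0403 by limma, and 0.0634 with the replicate block). Klrd1 was called in 10 of 20 alternatives. Settings that lost its call included leaving out 3A10t replicate 3, any EV+IL-2 library, or replicate 2 or 3 of EV no IL-2. The 5 mast cell markers summed to 5.30 to 6.28 in EV+IL-2 and 3.51 to 4.99 in EV no IL-2, mostly Kit (means of 5.46 and 3.46), with Fcer1a at 0 in both groups. In 1G12t they summed to 2.66 to 4.45 and in 3A10t to 2.75 to 3.33. Kit was lower than in EV+IL-2 in 3A10t (-1.13, adjusted p = 0.00322, called in 20 of 20 alternatives) and in 1G12t (-0.69, adjusted p = 0.0356, called in 11 of 20), the comparisons in which 5 and 6 members were lower. Settings that lost the Kit call in 1G12t included leaving out any 1 of the EV+IL-2 libraries, 1G12t replicate 1 or 3, or replicate 3 of EV no IL-2. The other mast cell markers, all below the filter, had higher means in 3A10t than in EV+IL-2. These were 0.278 against 0.191 for Cpa3, 0.278 against 0.0394 for Mcpt4, 0.287 against 0.0706 for Cma1 and 0.188 against 0 for Fcer1a. In 1G12t, Cpa3 was lower than in EV+IL-2 (0.164), while Mcpt4 (0.213), Cma1 (0.204) and Fcer1a (0.182) were higher. The 4 myeloid markers, all below the filter, summed to 0.322 to 1.46 in EV no IL-2 and 0.292 to 0.492 in EV+IL-2, and lay above both EV groups in all libraries of 1G12t (1.81 to 3.04) and 3A10t (1.59 to 2.85). The 3 B cell markers summed to 11.3 to 16.0 in 3A10t and 8.69 to 12.9 in 1G12t, beside 8.34 to 9.95 in EV cells without IL-2 and 10.2 to 12.7 with it, and neither of the 2 tested passed in any comparison. The EV+IL-2 libraries had 30393, 32422 and 36239 genes above 0, fewer than the 37930 to 43285 of all other libraries. With no filter on low TPM, 13646 genes were called higher in 3A10t than in EV+IL-2 and 2242 lower. The part of this difference in the low marker values was not tested. The part of these other cells in the results was not tested either.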

How the data were processed

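RNA from 12 Treg cultures of the mouse (4 groups with 3 libraries each) was reverse transcribed from oligo(dT) and amplified by PCR before sequencing. The deposited values are TPM, 1 column per library, for 55228 gene symbols. Per the methods and the submitters' processing notes, the authors trimmed reads with cutadapt 1.18, aligned them to mm10 (GRCm38) with STAR 2.5.3 and estimated expression with RSEM 1.3.0 and GENCODE. The authors used DESeq2 1.26 on counts, which are not analysed here. TPM are divided by length and library total and keep no depth, so the spread between libraries is the only error given.

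The genes tested were the 15043 whose mean reached 1 TPM. TPM were divided by median-of-ratios factors (0.854 to 1.09), taken from those of the 15043 genes that were above 0 in every library. The test was limma 3.58.1 in R 4.3.3 (eBayes, with a trend). It was run on log2(scaled TPM + 1), where the pseudocount of 1 understates changes of low genes, with 1 mean per group, all 12 libraries and no block. Calls are at a Benjamini-Hochberg adjusted p under 0.05. The script was tested on simulated data. Groups and replicates were taken from the labels, in which a replicate number marks a shared sort. The deviations of libraries with the same number had a mean correlation of 0.04 over 18 pairs, against -0.02 over 36 pairs with different numbers, so the fit with the number as a block was also run.

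The members, lists, motifs and tests were chosen with earlier results of these data known. The rule for genes named was every member; up to 4 genes per list by the size of the change among those past the threshold in a comparison with EV no IL-2; and the 5 genes most like Gzmb and Prf1. Hopx, called but smaller in change than 4 others of its list, and Rab27a, Fasl, Bach2, Ctsl, Foxp3, Gzmm, Gzme and the other genes given with no call against EV no IL-2 were named after their values were seen. Vamp7, which was on the granule release list, was not analysed here. Positions are from GENCODE M21, and promoters from RefSeq. Python 3.11.15 and matplotlib 3.10.9 drew the figures. Alternatives were TPM as deposited, quantile normalization, a pseudocount of 0.1 or 5, no filter or a mean TPM of at least 5, only the 6 libraries compared, the replicate block, eBayes without a trend, and each library left out in turn.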

Additional observations from a re-analysis of the deposited data

How the results depend on the processing

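Over 1008 alternative values of the 8 tested members, 980 kept their side of the threshold, 23 lost a call, 5 gained one and 14 changed sign, none of them called. The number of members called stayed at 5 to 6 in EV+IL-2 and at 0 in 1G12t, both against EV no IL-2, and lay between 5 and 6 for 3A10t and between 5 and 7 for 1G12t against EV+IL-2. Against EV no IL-2, 3.29% to 21.3% of all genes were called in EV+IL-2 over the alternatives, and 0.0133% to 0.0937% in 1G12t. Against EV+IL-2, the shares were 12.6% to 33.7% in 3A10t and 13.2% to 29.6% in 1G12t. In 3A10t against EV no IL-2 the number of members called was 1, and fell to 0 with only the 6 libraries compared (0.0266% of all genes called, against 2.05%). Leaving out 1 library gave 0 to 2, with 0 without any 1 of the EV no IL-2 libraries or 3A10t replicate 3 (0.166% to 0.604% of all genes), and 2 without 1G12t replicate 3 (Gzmb added, 1.61% of all genes) or 3A10t replicate 1 (Srgn added, 23.2% of all genes). In 3A10t against 1G12t it was 1, and 0 with no filter on low TPM and with only the 6 libraries compared (0.283% and 0.0864% of all genes). Leaving out 1 library gave 0 to 2 there, with 0 without EV no IL-2 replicate 2 or 3, any 1 of the EV+IL-2 or 1G12t libraries, or 3A10t replicate 2 or 3 (0.316% to 1.11% of all genes), and 2 without 3A10t replicate 1 (27.6%, against 4.27% with all libraries). A setting with fewer libraries has fewer degrees of freedom for the spread. With 1 library left out, a group has 2, and its spread was pooled with that of the other groups.

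With the replicate block, against EV no IL-2, 6 members were called for EV+IL-2, 1 for 3A10t and 0 for 1G12t, and no member changed its call (Gzmb in EV+IL-2 had an adjusted p of 0.00716 by limma). Of all genes, 13.1%, 2.67% and 0.0199% were called with the block, in the same order. Serpinb1a (0.0445) and Ikzf2 (0.0232) were called in EV+IL-2 with the block and not with all libraries and no block, and both were also called without 1G12t replicate 3. In 3A10t against EV no IL-2 the median over all genes was 0.03 on scaled TPM and -0.09 on TPM as deposited. TPM keep no depth, which limits what can be said of Gzma and Gzmk.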

Other observations

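The 5 genes most like Prf1 over the 12 libraries were mt-Atp8 (r = 0.901), mt-Cytb (0.900), Ccdc22 (0.889), Cnih1 (0.888) and Nup37 (0.882), as a description and with lower correlations than those of the genes most like Gzmb. The first 2 of these are mitochondrial genes. The mean of mt-Atp8 was 6224 scaled TPM in 3A10t, 5798 in EV+IL-2, 5314 in EV no IL-2 and 4572 in 1G12t, the same order of groups as for Prf1. Since mt-Atp8 was picked for its likeness to Prf1 in these libraries, the shared order is no separate result. Prf1 and all 5 genes had their lowest value in 1G12t replicate 3. Without that library the log2 fold change of Prf1 in 1G12t against EV no IL-2 was 0.11 instead of -0.09. The r between Prf1 and Gzmb was 0.588, and between Prf1 and Nkg7 it was 0.152, both over 12 libraries.

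Serpinb1a, a clade B serpin that inhibits neutrophil and granule proteases, was at 5.76, 5.30 and 4.46 scaled TPM in EV no IL-2 and 15.0, 15.9 and 11.4 in EV+IL-2. It was named after its values were seen. Its log2 fold change of 1.29 had an adjusted p of 0.0714 by limma, and it was called in 5 of 21 alternatives, among them the fit without 1G12t replicate 3 (1.28, adjusted p = 3.21e-04). It was 7.68, 6.02 and 1.02 in 1G12t, so that its lowest value of the 12 libraries, like that of Gzmb, was in 1G12t replicate 3.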
